A study of Homo sapiens with 9 samples.

Results

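PBRM1, SETD2, BAP1 and KDM5C are 4 genes of chromatin proteins that are recurrently mutated in clear cell renal cell carcinoma, and their peaks were read from 5 chromatin immunoprecipitation sequencing (ChIP-seq) peak lists. A peak was taken as a member when it shared at least 1 bp with the hg19 position of a gene or with the 5 kb on either side of it. This gave 21 of the 52875 peaks in all lists: 13 in ZNF395-eGFP 786-O, 0 in parental GFP 786-O, 1 in ZNF395-eGFP A498, 2 in parental GFP A498 and 5 in MYC parental 786-O. The genes were chosen by their role in the disease and, for BAP1, selected on measured values, the score of 232.4 of a peak in tagged 786-O and the lack of a tagged A498 peak there. That contrast is described here and supports nothing.

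786-O and A498 are established human cell lines from clear cell renal cell carcinoma. In the tagged cells of each line, a guide plasmid and a donor plasmid were delivered by electroporation to put an eGFP tag behind ZNF395, a zinc finger protein, and the tag was precipitated with a GFP antibody (ab290). Parental cells without the tag were precipitated with the same GFP antibody as its background, and parental 786-O cells also with a c-Myc antibody (sc-764). The labels do not say whether tagged cells were 1 clone or a pool. The A498 libraries are so named by their titles while their cell line field says 786-O, and the MYC library carries P300 in its target field. Each group was 1 library, so no difference below has a replicate check and no test between groups was possible. In 786-O, 20034 peaks were listed with the tag, 3361 without it and 20199 for MYC; in A498 there were 7718 with the tag and 1563 without. The read depth behind single peaks is unknown.

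PBRM1 encodes BAF180, the bromodomain subunit that marks the PBAF form of the SWI/SNF nucleosome remodeller. SETD2 encodes the enzyme that trimethylates histone H3 at K36 along transcribed genes. BAP1 encodes the deubiquitinase that removes ubiquitin from histone H2A and so opposes Polycomb complexes. KDM5C encodes a demethylase of methylated H3K4, a mark of active gene starts. The first 3 lie on the short arm of chromosome 3, which clear cell tumours commonly lose together with VHL, and KDM5C lies on the X chromosome and largely escapes X inactivation.

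The starts of PBRM1, SETD2 and KDM5C are shown as RefSeq promoter sequences, because tagged 786-O and MYC peaks overlapped at their hg19 starts. Each runs from 250 bases before to 50 bases after a RefSeq gene start, 5′ to 3′ on the minus strand, in build GRCh38.p14. Peak positions below are in hg19 and were not converted, so whether the printed bases lie under the peaks was not checked. Capitals mark the E-box CACGTG, the element that MYC and MAX bind. RefSeq entries were matched for 3 of the 4 genes, and for PBRM1 the entry with the E-box is printed out of the pair of entries.
PBRM1, chr3:52685864-52686163: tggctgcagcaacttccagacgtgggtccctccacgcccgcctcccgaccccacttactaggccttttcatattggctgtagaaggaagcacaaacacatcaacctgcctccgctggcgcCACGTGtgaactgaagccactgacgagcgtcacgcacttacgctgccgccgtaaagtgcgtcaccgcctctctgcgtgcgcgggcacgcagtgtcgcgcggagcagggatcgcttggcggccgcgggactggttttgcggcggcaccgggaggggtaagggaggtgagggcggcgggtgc
SETD2, chr3:47164064-47164363: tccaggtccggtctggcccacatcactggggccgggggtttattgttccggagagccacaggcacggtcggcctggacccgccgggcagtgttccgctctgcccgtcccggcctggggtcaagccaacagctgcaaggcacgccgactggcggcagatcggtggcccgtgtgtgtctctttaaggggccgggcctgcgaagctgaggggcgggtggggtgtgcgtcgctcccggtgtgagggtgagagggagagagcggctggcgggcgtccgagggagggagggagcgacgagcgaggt
KDM5C, chrX:53225158-53225457: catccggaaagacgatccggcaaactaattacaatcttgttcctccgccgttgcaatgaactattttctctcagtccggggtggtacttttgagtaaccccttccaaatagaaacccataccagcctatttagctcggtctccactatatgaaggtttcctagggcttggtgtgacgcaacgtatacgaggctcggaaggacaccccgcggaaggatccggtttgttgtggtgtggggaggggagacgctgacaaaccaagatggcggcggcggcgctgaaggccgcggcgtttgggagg

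The PBRM1 sequence held its E-box 130 to 125 bases before the RefSeq start. The same E-box is also in an overlapping promoter entry of the neighbouring gene GNL3, just after the GNL3 start. The other PBRM1 entry, that of SETD2 and that of KDM5C held none. Of all 35116 RefSeq promoters of the same 300 bp, 7.26% held CACGTG. The element GCCGGCG, described for ZNF395 under its name HDBP2, was searched on both strands, was in none of the 4 member entries and was in 11.0% of all promoters; it shares no overlapping match with the E-box here. In base composition, the printed PBRM1 and SETD2 promoters were 65.3% and 70.3% G or C with 31 and 28 CpG pairs, and KDM5C was 54.3% with 22, against medians of 58.7% and 14 over all promoters. A match or its absence in these letters is a description of the window only.

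All 4 genes had a ZNF395-eGFP peak at their start in 786-O, and all 4 had a MYC peak there as well. The share of all gene starts with such peaks was not computed, so these counts single out none of the 4 genes. Neither parental GFP list had a peak within 1 kb of any of the 4 starts, and tagged A498 had such a peak at SETD2 alone. The authors' scores were read as −log10 of a p or q value for each peak against its control. MYC and parental 786-O shared a control. A score and its rank were read within a list, and sizes were not compared between lists.

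**Figure D1:**
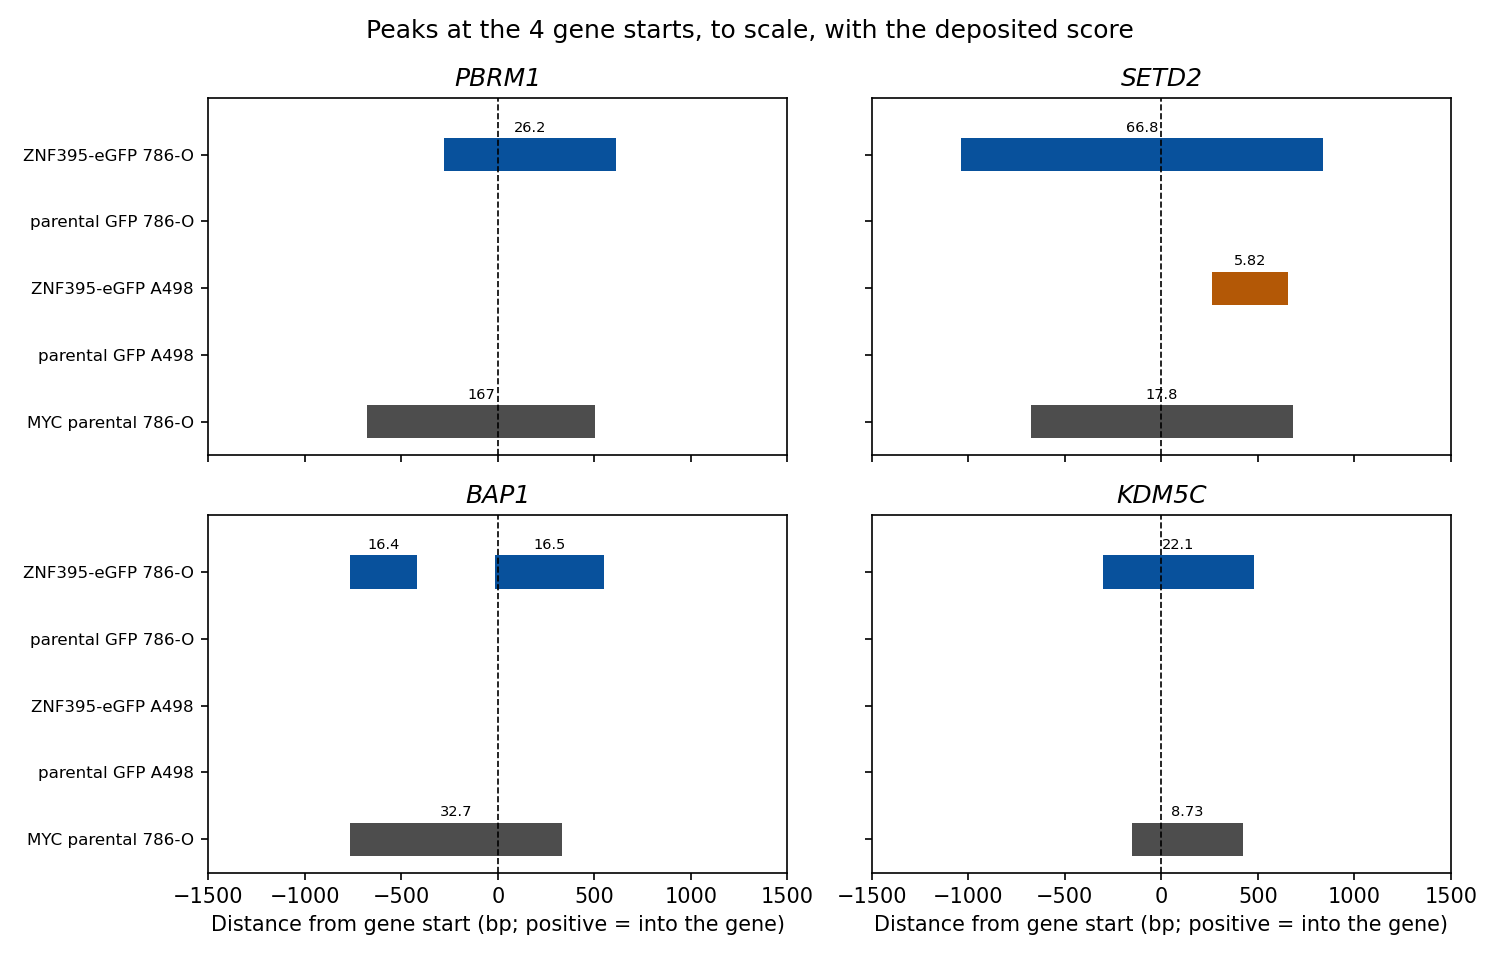
Peaks within 1 kb of the 4 gene starts, drawn to scale as bars against the distance from the hg19 gene start in bp (positive runs into the gene), 1 row per library, with the deposited score above each bar. Tagged 786-O and MYC have bars at all 4 starts, tagged A498 at SETD2 only (score 5.82), and the parental GFP rows are empty.

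SETD2 had the highest start peak of the 4 in tagged 786-O. It lay at chr3:47204632-47206503, was 1872 bp wide and scored 66.8, rank 986 of 20034. It reached from 1036 bp before to 835 bp after the start and so covered both sides of it. In tagged A498 the peak at chr3:47204811-47205205 was 395 bp wide, scored 5.82 and had rank 3651 of 7718. It lay wholly inside the gene, 262 to 656 bp after the start, and within the span of the 786-O peak. The MYC peak at chr3:47204785-47206144 scored 17.8, rank 9396 of 20199, and all of its 1360 bp lay inside the tagged 786-O peak, with midpoints 103 bp apart. SETD2 was thus in the highest decile of its list for ZNF395-eGFP in 786-O and in the fifth decile for MYC. Along the rest of its 147.57 kb the gene had no further peak in any of the 5 lists, and the nearest parental 786-O peak was 217 kb away. RefSeq lists KIF9-AS1, a long noncoding RNA gene, within 5 kb of SETD2, and reads at this start were not assigned between them.

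PBRM1 had the opposite order of ranks. Its ZNF395-eGFP peak in 786-O, at chr3:52719324-52720213, scored 26.2 and had rank 5101 of 20034, while the MYC peak there, at chr3:52719435-52720612, scored 166.8 and had rank 326 of 20199, in the highest decile. The tagged peak reached from 277 bp before to 612 bp after the start, and 779 of its 890 bp lay in the MYC peak. The midpoint of the tagged peak was 167.5 bp inside the gene and that of the MYC peak 87.5 bp before it. In the RefSeq tables GNL3, the gene of the nucleolar protein nucleostemin, neighbours PBRM1 on the opposite strand, with promoter entries that overlap those of PBRM1, so a peak at this start cannot be assigned to either gene.

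A further PBRM1 site lay about 15 kb into the gene. The tagged 786-O peak at chr3:52704666-52704885 was 220 bp wide and scored 9.11, rank 12894 of 20034. It fell inside a MYC peak at chr3:52704544-52705083 with a score of 23.0, rank 7529 of 20199. Neither tagged A498 nor a parental list had a peak here. The rest of the 140.569 kb of PBRM1 was free of peaks in all lists.

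KDM5C, the member outside chromosome 3, had its peaks in the same arrangement but with a lower MYC rank. The ZNF395-eGFP peak in 786-O, at chrX:53254125-53254909, scored 22.1, rank 6258 of 20034. The MYC peak at chrX:53254181-53254756 scored 8.73, rank 15340 of 20199, in the eighth decile of its list. All of its 576 bp lay inside the tagged peak, with midpoints 48.5 bp apart, the closest pair of the 4 starts. No other peak of any list lay in the 44.102 kb window, and the nearest tagged A498 peak was 1769 kb away. RefSeq lists IQSEC2, a protein-coding gene, within 5 kb of KDM5C, and reads at this start were not assigned between them.

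At the BAP1 start, tagged 786-O had a pair of weaker peaks that met 1 wide MYC peak. The tagged peaks lay at chr3:52443575-52444136, with a score of 16.5 and rank 8286, and at chr3:52444542-52444886, with a score of 16.4 and rank 8339. The first began 15 bp before the start and ran 546 bp into the gene, and the second lay 421 to 765 bp before it. The MYC peak at chr3:52443788-52444888 scored 32.7, rank 5261 of 20199; it shared 349 bp with the first, 62.1% of that peak, and held the whole of the second. PHF7, a zinc finger gene, is listed by RefSeq as a neighbour within 5 kb of BAP1, and reads at this start were not assigned between them.

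The body of BAP1 held the highest-scoring tagged 786-O peak of the 4 genes, within a run of 7 separate peaks. Whether these peaks come from the tagged protein was not tested. From the side of the gene start, the first, at chr3:52442396-52442724, scored 61.8 and the second, at chr3:52441875-52442194, scored 63.1. They were followed by chr3:52440725-52441590 with a score of 107.3 and chr3:52439671-52440502 with a score of 84.8. Towards the gene end came chr3:52439007-52439423 with a score of 109.8, chr3:52438356-52438717 with a score of 71.9 and chr3:52436197-52438016 with a score of 232.4. The last was the widest, at 1820 bp, and had rank 19 of 20034, and the lowest of the 7 had rank 1154. All 7 stood in the highest decile of the list, above both peaks at the BAP1 start.

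The run spanned 6528 bp, from 1397 to 7924 bp after the start, and ended 1177 bp before the end of the 9.102 kb gene. Peaks covered 75.8% of that span, and the gaps between neighbouring peaks were 201 to 339 bp long, with a median of 265.5 bp. A gap of 850 bp separated the run from the peaks at the start. Positions of exons and introns in hg19 were not used here, so whether peaks and gaps follow them was not analysed. The lists hold no reads, so whether the run comes from chromosomal DNA or from another copy of BAP1 sequence was not tested.

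**Figure D2:**
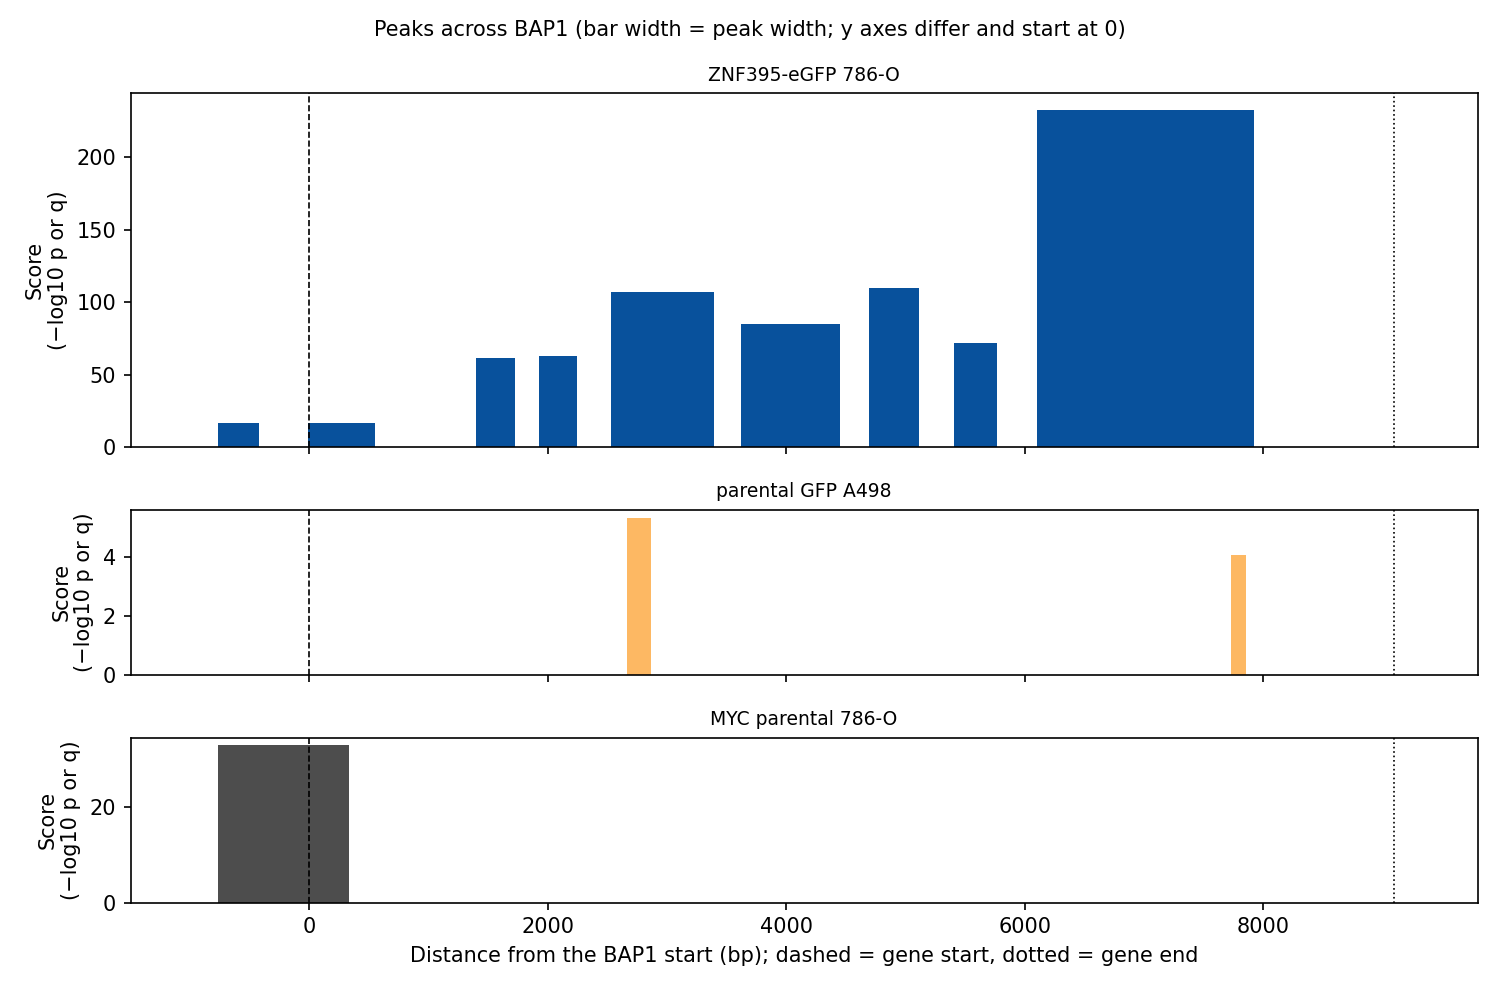
Peaks across BAP1 against the distance from its start in bp, in tagged 786-O, parental GFP A498 and MYC; bar width is peak width, bar height is the deposited score, and the y axes differ. The 7 peaks of the tagged 786-O run score 61.8 to 232.4, parental A498 has 2 low peaks within them, and MYC has its peak at the start only; parental 786-O and tagged A498 have no peak and are not drawn.

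None of the 7 run peaks overlapped a parental 786-O, tagged A498 or MYC peak. Parental A498 cells, which carry no tag, did have 2 GFP peaks inside the run. The peak at chr3:52436267-52436388 was 122 bp wide and scored 4.04, rank 1360 of 1563, and lay in the widest peak of the run. The peak at chr3:52441253-52441459 was 207 bp wide and scored 5.32, rank 1247, and lay in the third peak from the start. Both were below the median score of 13.9 of their list. They were 2 of only 37 parental A498 peaks on chromosome 3, and their nearest neighbours in that list were 47.4 Mb away on one side and 20.7 Mb on the other. BAP1 body peaks were therefore present in tagged 786-O and in parental A498, and were not called in parental 786-O or in tagged A498.

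When peaks with gaps of at most 500 bp were joined, a limit chosen with the BAP1 peaks known, the 20034 peaks formed 18200 groups, of which 16586 were single peaks and 171 held 3 or more. Only 2 groups held 7 peaks, the BAP1 run with a median score of 84.8 and another with a median score of 10.2. Joined in the same way, parental A498 had 6 groups of 7 or more peaks, the longest with 14, but its BAP1 peaks stayed single. Parental 786-O, tagged A498 and MYC had no group of that length. The lowest peak of the BAP1 run scored 61.8. Among the 171 groups only a group of 3 peaks, with a lowest score of 72.7, stood higher by that measure. BAP1 was chosen for the score of a peak in this run, so its standing by score is a description and supports nothing. No MYC peak overlapped any peak of 34 of the 171 groups, the BAP1 run among them. With gaps of at most 350 bp, BAP1 was the longest run of the tagged 786-O list, with 7 peaks. With gaps of up to 1000 bp it held 9 peaks and was not the longest: 8 groups then held 7 or more, and the longest held 11. The 9 peaks included both peaks at the BAP1 start, so the lowest score of the run was then 16.4.

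**Figure D3:**
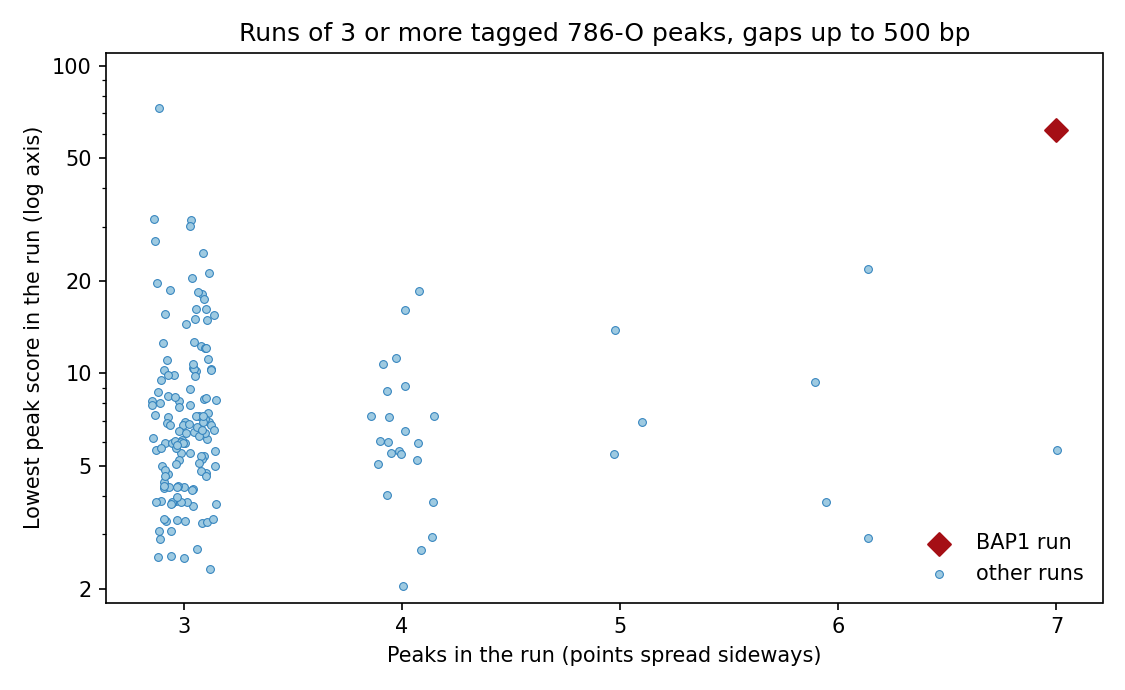
Each point is 1 of the 171 groups of 3 or more tagged 786-O peaks joined across gaps of at most 500 bp, with the number of peaks on the x axis and the lowest score in the group on a log y axis. The BAP1 run, with 7 peaks and a lowest score of 61.8, lies apart from the other group of 7 peaks and below 1 group of 3 peaks at 72.7. BAP1 was chosen for the score of a peak in this run.

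Set beside the whole tagged 786-O list, the members split by position. Of the 13 member peaks in tagged 786-O, 6 overlapped a MYC peak (46.2%, exact 95% interval 19.2 to 74.9), against 60.6% of all tagged 786-O peaks. By overlap of at least 1 bp, these 6 were all the peaks outside the BAP1 run, and the 7 of the run had none. Under 50% reciprocal overlap, and also with midpoints within 200 bp, only 3 of the 13 had a MYC partner. Over all tagged 786-O peaks, the MYC share fell from 86.9% in the highest decile to 49.2% in the seventh. The 6 peaks stand in deciles within that range. Intervals cover counting error only, and peaks of 1 gene are not independent. Of the 1154 tagged 786-O peaks that scored at least as high as the lowest of the run, 88.0% overlapped MYC, and 81.6% overlapped a tagged A498 peak. The A498 share is a description only, since BAP1 was chosen on its score and its lack of a tagged A498 peak. In the other direction, each of the 5 member MYC peaks overlapped a tagged 786-O peak, as did 60.9% of all MYC peaks.

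Agreement between the lines was limited to SETD2. Of the 6 tagged 786-O peaks outside the BAP1 run, 1 overlapped a tagged A498 peak (16.7%, 0.421 to 64.1), against 20.5% of all tagged 786-O peaks. The 7 run peaks had no A498 partner, and since the lack of one at the strongest of them was a reason for the choice of BAP1, nothing is read from their count. The A498 share depended on score in the list as a whole, at 73.5% in the highest decile, which holds SETD2 and the BAP1 run, 31.5% in the third, which holds the PBRM1 start, 19.8% in the fourth, which holds KDM5C, and 13.8% in the fifth, which holds the BAP1 start. The PBRM1, KDM5C and BAP1 starts, which had no A498 peak, stand in deciles in which most tagged 786-O peaks had no A498 partner. The tagged A498 list was shorter than the tagged 786-O list, and its nearest peak to BAP1 was 122 kb away. Whether score or list length bears on the missing A498 peaks was not tested. The tagged A498 peak at SETD2 overlapped tagged 786-O and MYC peaks, as did 56.6% and 46.8% of its list.

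**Figure D4:**
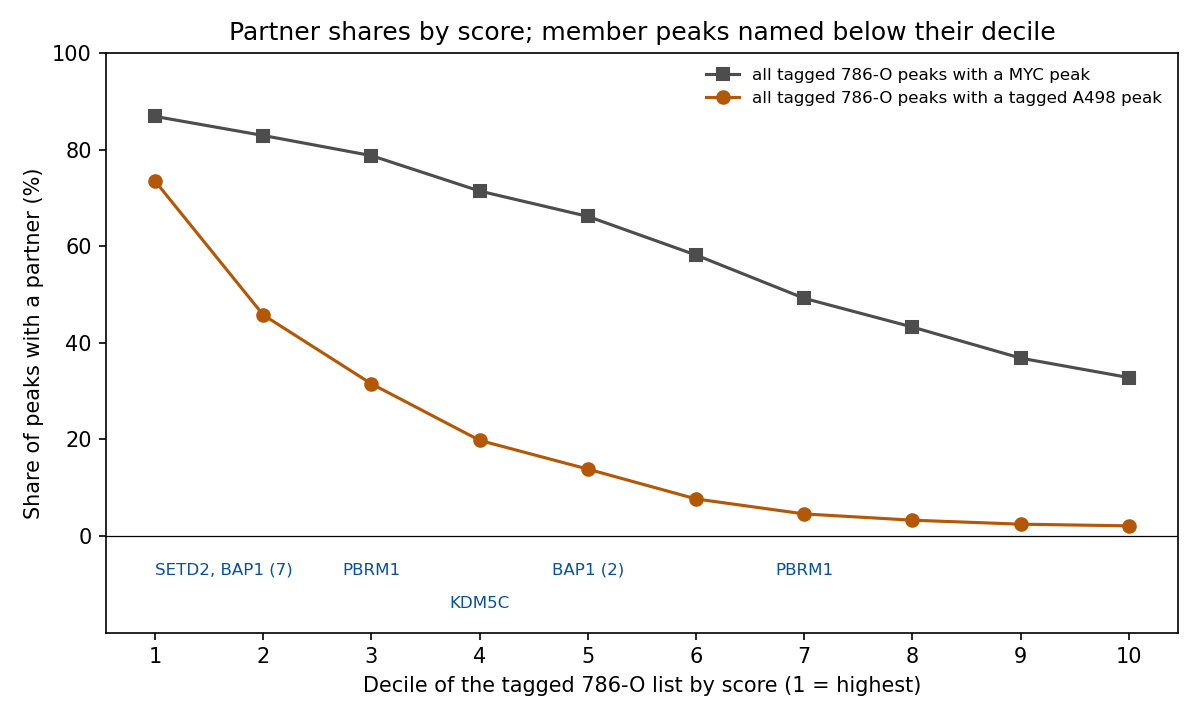
Share of all tagged 786-O peaks that overlap a MYC peak (squares) or a tagged A498 peak (circles), in %, by decile of the list by score, with the member peaks named under their decile. The A498 share is 73.5% in the highest decile, where SETD2 and 7 BAP1 peaks stand, and 13.8% in the fifth, where the 2 peaks at the BAP1 start stand.

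None of the 13 tagged 786-O peaks lay at a parental 786-O peak, and the exact 95% interval for 0 of 13 reaches 24.7%. That interval treats the peaks as independent, which they are not, since 9 of the 13 lie in the BAP1 window. Of all tagged 786-O peaks 12.2% did, and 87.8% were free of one; of the 1154 that scored at least as high as the lowest run peak, 30.6% did. At parental A498 peaks lay 2 of the 13, both in BAP1, against 3.93% of all tagged 786-O peaks and 5.72% of those scoring as high as the run. The tagged A498 peak at SETD2 had no parental A498 peak, as was the case for 93.1% of its list, and the 2 parental A498 peaks in BAP1 both overlapped tagged 786-O peaks, as did 51.9% of theirs.

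By density, the 4 windows together, 0.371 Mb, held 35.0 tagged 786-O peaks per Mb, and 16.2 without the BAP1 run, against 6.47 per Mb over the span of the lists. For MYC the values were 13.5 and 6.53 per Mb, and for tagged A498 2.69 and 2.49 per Mb. The parental lists gave 0 in the windows and 1.09 per Mb over the span in 786-O, and 5.39 and 0.505 per Mb in A498, where the 2 BAP1 peaks make up the count. Windows around genes hold gene starts, and no rate for other genes was computed, so these densities single out no gene. The peaks nearest to the 5 kb limit lay, on the inside, at SETD2 in tagged 786-O, reaching 1036 bp before the start, and, on the outside, 8.22 kb after the end of PBRM1 in the MYC list, at chr3:52570235-52571144 with a score of 50.4, and 11.1 kb after it in tagged 786-O, at chr3:52567291-52568275 with a score of 20.4.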

How the data were processed

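The 9 samples include 4 inputs, which entered only as the authors' controls, and 5 ChIP libraries with a deposited peak list. The submitters' processing notes name BWA, MACS2 and hg19, and the sources used here give no settings. The deposited score was read as a −log10 p-value or q-value, since each list begins just above 2; which of them it is remains unstated. Peak names in the deposited files state that alignments were merged and that every ChIP library had 1 control, shared by MYC and parental 786-O.

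Gene positions in hg19 came with the choice of genes, and strand from RefSeq or, for BAP1, from its known gene model. Starts were converted from 0-based to 1-based. Peaks overlapped when they shared at least 1 bp, and a tagged-only peak has no parental peak of its line. Every peak in the windows is named. Overlap calls were tested on simulated data (0 of 5000 wrong) and against bedtools 2.31.1 (0 of 211500 differed). Intervals are Clopper-Pearson. The software was Python 3.11.15 with pandas 2.3.3, numpy 2.4.6, matplotlib 3.10.9 and scipy 1.17.1. Members and lists were chosen with earlier results of these data known. Counts over other genes of the same complexes had been planned and need hg19 gene positions; they were not analysed here. Window size, overlap rule, score limits and run gaps were varied.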

Additional observations from a re-analysis of the deposited data

Results flagged for a closer look

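The BAP1 window differed in sign between the 2 lines: tagged minus parental peaks came to 9 in 786-O (9 tagged, 0 parental) and -2 in A498 (0 tagged, 2 parental). It stands here because the only tagged and parental libraries of each line differ in opposite senses. The difference was not tested, since each group is 1 library. Of the 9 tagged 786-O peaks, 7 form the BAP1 run. The 2 parental A498 peaks had low scores, 4.04 and 5.32. BAP1 was chosen for a strong tagged 786-O peak with no tagged A498 peak. The signs therefore follow in part from that choice and support nothing.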

How the results depend on the processing

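Of 70 alternative values, 56 stayed within 1.5 times the reported count and 14 did not. With lists limited to the length of the shortest, by score, the member peaks were 8 in tagged 786-O, 0 in tagged A498 and 1 in MYC, and the starts with a peak were 1, 0 and 1, by construction, since fewer peaks enter. The upper 50% of scores left 0 parental A498 peaks. Without the BAP1 run, a setting chosen after seeing the data, tagged 786-O kept 6 peaks, and 6 of them were tagged-only. Under 50% reciprocal overlap, peaks with a tagged A498 partner were 0 and peaks with a MYC partner 3. That rule lowers counts by construction where partners differ in width. With midpoints within 200 bp the counts were again 0 and 3. The midpoint rule needs no overlap, so its counts were not fixed in this way. Midpoints of tagged 786-O and MYC peaks lay 255 bp apart at the PBRM1 start, and 376 and 482.5 bp apart at the BAP1 start. The widest BAP1 peak ranked 228 by width instead of 19 by score. With parental peaks of either line removed, 11 of 13 tagged 786-O peaks were left. The run held 7 peaks at gaps up to 350 bp and 9 at 1000 bp, where the longest run of the list held 11. No paired analysis was possible because each group is 1 library and the labels give no replicate numbers. Depth per peak is unknown, which limits every statement that a peak is missing.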
